A study of Mus musculus with 6 samples.

Results

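The regions described here are stretches of accessible chromatin that were called in naive CD4 T cells, were called at neither time of Th17 culture, and lie inside protein-coding genes away from the gene ends. All peaks of the 3 deposited lists were pooled, and any that overlapped by 1 bp or more were joined, which gave 81315 regions. One was taken when it held a naive peak, held no 48 h or 72 h peak, and had its middle inside the body of a RefSeq GRCm38 protein-coding gene and over 1 kb from every gene end. This gave 11938 intragenic naive-only regions, which are 14.7% of all regions. They were chosen by the presence and absence of called peaks in these same lists, so the counts of naive-only regions are descriptions and carry no test.

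The assay was ATAC-seq on CD4 T cells of C57BL/6 mice, where Tn5 transposase cuts and tags open DNA. The groups were untreated naive CD4+ cells and cells cultured towards the Th17 fate for 48 h or for 72 h, on plates coated with hamster IgG, with anti-CD3ε at 0.25 μg/mL, anti-CD28 at 1 μg/mL, TGF-β at 0.1 ng/mL and IL-6 at 20 ng/mL. Each condition had 2 libraries of 10000 cells each, but 1 peak list per condition, so no difference between conditions has a replicate check. An absent peak says that none was listed, not that the chromatin was closed, and fewer cells with an open site cannot be told apart from less opening per cell.

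Most open sites inside genes lie in introns and act, where they act at all, as enhancers, silencers, boundary elements or alternative promoters. Naive T cells are held in a quiescent state by transcription factors such as FOXP1, TCF-1, LEF1, BACH2 and FOXO1, and receptor signals through CD3 and CD28 move them out of it. TGF-β and IL-6 together direct activated cells towards the Th17 fate through SMAD and STAT3 signalling.

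A small set of these regions lay on transcription start sites, and their start windows are the only member sequences shown. A start window here is the RefSeq GRCm38.p6 sequence from 250 bases before to 50 bases after a listed start, printed 5′ to 3′ on the gene's strand, with CpG dinucleotides in capitals. Foxp1, Cdkn2c and Dnmt3a each had a start downstream of their 5′-most listed start inside a naive-only region, while the 5′-most start lay in a region of all 3 lists. For these genes both windows are given. Cd247 and Pik3ip1 each had a start of their own in a naive-only region. The genes were picked after their values were seen, as T cell, cell cycle and chromatin genes. The Foxp1 windows are chr6:99266466-99266765 and chr6:99520944-99521243 on the minus strand, and those of Cdkn2c are chr4:109665323-109665622 and chr4:109666707-109667006 on the minus strand. On the plus strand lie those of Dnmt3a at chr12:3891494-3891793 and chr12:3806730-3807029, of Cd247 at chr1:165788431-165788730, and of Pik3ip1 at chr11:3330481-3330780.
Foxp1 internal start: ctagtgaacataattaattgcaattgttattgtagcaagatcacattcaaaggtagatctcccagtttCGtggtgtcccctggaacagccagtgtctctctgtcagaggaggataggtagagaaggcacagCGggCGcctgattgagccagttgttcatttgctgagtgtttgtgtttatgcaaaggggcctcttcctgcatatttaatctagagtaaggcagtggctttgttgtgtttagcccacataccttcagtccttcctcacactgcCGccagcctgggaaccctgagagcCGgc
Foxp1 upstream start: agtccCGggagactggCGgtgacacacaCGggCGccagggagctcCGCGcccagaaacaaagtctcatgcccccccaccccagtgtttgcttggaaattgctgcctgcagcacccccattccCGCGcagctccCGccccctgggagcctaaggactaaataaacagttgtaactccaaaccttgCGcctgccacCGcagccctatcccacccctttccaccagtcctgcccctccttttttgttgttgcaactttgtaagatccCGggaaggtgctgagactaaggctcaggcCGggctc
Cdkn2c internal start: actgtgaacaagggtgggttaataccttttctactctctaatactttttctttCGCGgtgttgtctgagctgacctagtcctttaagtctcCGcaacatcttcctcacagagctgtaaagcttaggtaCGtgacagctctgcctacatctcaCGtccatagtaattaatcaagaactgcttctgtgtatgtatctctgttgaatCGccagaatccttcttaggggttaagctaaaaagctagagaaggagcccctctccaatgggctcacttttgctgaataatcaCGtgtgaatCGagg
Cdkn2c upstream start: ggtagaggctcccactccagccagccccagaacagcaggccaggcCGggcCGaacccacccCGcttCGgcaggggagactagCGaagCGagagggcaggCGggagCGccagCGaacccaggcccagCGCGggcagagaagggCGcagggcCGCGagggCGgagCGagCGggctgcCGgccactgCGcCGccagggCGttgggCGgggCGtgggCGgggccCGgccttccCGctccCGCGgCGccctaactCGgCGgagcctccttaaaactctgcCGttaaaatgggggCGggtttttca
Dnmt3a internal start: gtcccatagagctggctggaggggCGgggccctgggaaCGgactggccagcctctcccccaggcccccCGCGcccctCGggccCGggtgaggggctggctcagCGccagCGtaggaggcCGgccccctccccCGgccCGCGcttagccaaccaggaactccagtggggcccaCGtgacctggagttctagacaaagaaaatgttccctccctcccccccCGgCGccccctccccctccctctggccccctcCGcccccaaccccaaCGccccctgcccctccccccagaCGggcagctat
Dnmt3a upstream start: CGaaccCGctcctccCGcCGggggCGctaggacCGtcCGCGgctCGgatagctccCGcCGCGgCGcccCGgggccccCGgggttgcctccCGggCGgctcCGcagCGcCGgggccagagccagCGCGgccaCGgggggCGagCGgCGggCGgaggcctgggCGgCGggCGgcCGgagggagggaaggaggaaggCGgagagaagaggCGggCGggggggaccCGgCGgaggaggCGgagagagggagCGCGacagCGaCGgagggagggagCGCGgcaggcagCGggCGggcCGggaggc
Cd247 start: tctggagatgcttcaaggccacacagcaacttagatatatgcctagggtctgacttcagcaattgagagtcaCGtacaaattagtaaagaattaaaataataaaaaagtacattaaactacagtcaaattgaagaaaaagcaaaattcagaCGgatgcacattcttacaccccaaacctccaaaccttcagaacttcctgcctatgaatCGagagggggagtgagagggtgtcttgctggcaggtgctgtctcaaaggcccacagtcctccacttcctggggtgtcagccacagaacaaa
Pik3ip1 start: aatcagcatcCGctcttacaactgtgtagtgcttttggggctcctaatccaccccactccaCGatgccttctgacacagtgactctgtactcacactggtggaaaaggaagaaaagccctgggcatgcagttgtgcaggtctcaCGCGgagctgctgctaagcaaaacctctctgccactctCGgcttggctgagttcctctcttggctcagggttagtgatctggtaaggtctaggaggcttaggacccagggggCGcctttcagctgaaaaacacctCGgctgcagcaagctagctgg

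The internal Foxp1 start window held 5 CpG and 48.7% G+C, and the upstream window of the same gene held 13 CpG and 60.3% G+C. The naive peak over the internal start spanned chr6:99266358-99266637. Foxp1 encodes a forkhead factor that holds naive T cells in quiescence. For Cdkn2c, which encodes the cell cycle inhibitor p18INK4c, the internal window had 8 CpG against 33 in the upstream window. Dnmt3a encodes a de novo DNA methyltransferase, and its internal window had 18 CpG against 46 upstream. In all 3 genes the window in the naive-only region was the poorer in CpG. The Cd247 window, at the gene for the CD3 zeta chain of the T cell receptor, held 3 CpG, and that of Pik3ip1, an inhibitor of PI3K, held 7.

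Intragenic naive-only regions seldom lay on a start. The start base of the gene itself lay in 71 of the 11938 regions, or 0.595% (95% interval 0.465 to 0.750), against 17.1% (16.2 to 18.1) of the 6275 intragenic regions present in all 3 lists. Among the 5372 intragenic regions called at both Th17 times and not in naive cells the share was 1.32% (1.03 to 1.66). Intragenic regions of 1 Th17 list alone were at the level of the naive-only ones. Their shares were 0.579% of 7605 at 72 h only (0.421 to 0.776) and 0.678% of 1918 at 48 h only (0.361 to 1.16). All intervals are exact Clopper-Pearson intervals, which cover counting error only, and regions of 1 gene are not independent. Over 91 genes, a start window of the gene itself overlapped a naive-only region. In 58 of these genes an overlapped window was of a start downstream of the first, and in 24 of the 58 the first start lay in a region of all 3 lists.

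The start windows in naive-only regions were also poorer in CpG as a class. With 1 window per region, 33.8% of 71 windows held 10 or more CpG (23.0 to 46.0), against 86.6% of 1075 windows in regions of all 3 lists (84.4 to 88.6), 70.4% of 71 windows in regions of both Th17 times only (58.4 to 80.7) and 43.5% of all 32851 RefSeq start windows. Median CpG numbers were 7, 21, 18 and 7 in the same order of classes. The naive-only windows and the whole RefSeq set had the same median.

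Short motif matches, on either strand, were counted in the same windows. The ETS letters CCGGAAG or CAGGAAG occurred in 29.6% of the naive-only windows (19.3 to 41.6), 28.7% of the windows of all 3 lists, 5.63% of the windows of both Th17 times (1.56 to 13.8) and 20.9% of all RefSeq windows. ETS factors such as ETS1 and FLI1 are abundant in T cells. The TCF/LEF letters CTTTGAA or CTTTGAT, bound by TCF-1 and LEF1, occurred in 15.5% of the naive-only windows (8.0 to 26.0), against 5.12% in all 3 lists (3.88 to 6.61), 2.82% at both Th17 times (0.343 to 9.81) and 8.65% of all windows. The AP-1 letters TGANTCA, bound by the FOS, JUN and BATF factors that receptor signals induce, were found in 5.63% of the naive-only windows (1.56 to 13.8) and 5.12% of those in all 3 lists, against 18.3% at both Th17 times (10.1 to 29.3) and 7.81% of all windows. Inside the peak itself the ETS letters lay in 17, the TCF/LEF letters in 7 and the AP-1 letters in 2 of the 71 naive-only windows. The same counts were 296, 47 and 51 of 1075 windows in regions of all 3 lists, whose peaks are wider, and 1, 1 and 13 of 71 windows at both Th17 times. The Foxp1 window above carries both kinds: CTTCCTG, an ETS match on the other strand, starts 58 bases before the start and lies inside the naive peak, while TTCAAAG, a TCF/LEF match on the other strand, starts 205 bases before the start and lies outside it. In the Cd247 window CTTCCTG occurs at 57 bases before and 22 bases after the start, both inside the naive peak. The 9 other motifs searched had wide and overlapping intervals between the naive-only windows and those of all 3 lists. The ETS and AP-1 intervals overlapped there too. Among the 9, the CTCF core letters CCACNAGG occurred in 2.82% of the naive-only windows (0.343 to 9.81) and 4.84% of those in all 3 lists. At both Th17 times they occurred in 15.5% of the windows (8.0 to 26.0). Inside the peak they lay in 1 of 71 naive-only windows and in 7 of 71 at both Th17 times. The naive-only windows cover 71 of 11938 regions, and a letter match is not a measured binding site.

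Inside genes, naive-only regions made up 54.8% of the 21800 regions that held a naive peak (54.1 to 55.4), which is the background share for every count of naive-only regions below. Between genes the share was 54.2% of 16871 (53.4 to 54.9), and within 1 kb of gene ends it was 17.8% of 13246 (17.2 to 18.5). Of all 23435 naive-only regions, 50.9% lay inside genes (50.3 to 51.6), against 30.2% of the 20812 regions present in all 3 lists (29.5 to 30.8). Regions gained at both Th17 times had 50.3% inside genes (49.4 to 51.3). For comparison within gene bodies, 60.2% of the 24757 intragenic regions with a 48 h or 72 h peak had no naive peak. The peaks are named with running numbers that skip in places, and 33.4% of the naive-only regions lay between neighbouring listed peaks of a Th17 time whose numbers skip. Without these, 7955 regions and a share of 48.1% were left. A region of all 3 lists lies on Th17 peaks and can hardly be dropped this way, so a lower share is built in.

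Width was not itself a criterion in the choice of regions. A wider naive peak has more bases that can overlap a Th17 peak, however, so the rule favours narrow peaks among the naive-only regions. Where a region held 2 or more naive peaks, the widest was taken. This applied to 257 intragenic regions of all 3 lists and to 0 naive-only regions. The naive peak of an intragenic naive-only region had a median width of 194 bp, with quartiles of 136 and 288 bp and a maximum of 1301 bp. Intragenic naive peaks also called at 1 of the 2 Th17 times had a median of 245 bp, and those of all 3 lists one of 383 bp (quartiles 247 and 606). A width of at most 150 bp was found in 31.3% of naive-only regions (30.4 to 32.1) against 7.38% of regions of all 3 lists (6.74 to 8.05). Conversely, 2.25% of naive-only regions exceeded 600 bp, against 25.5% of those in all 3 lists. Read by width class, the naive-only share was lower in each wider class: 76.7% up to 150 bp, 67.7% above that and up to 200 bp, then 60.2% up to 250 bp, 54.4% up to 300 bp, 46.9% up to 400 bp, 34.4% up to 600 bp and 13.0% over 600 bp. The lists give neither the signal under a naive peak nor the read depth, and their part in the widths and calls was not tested.

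**Figure D1:**
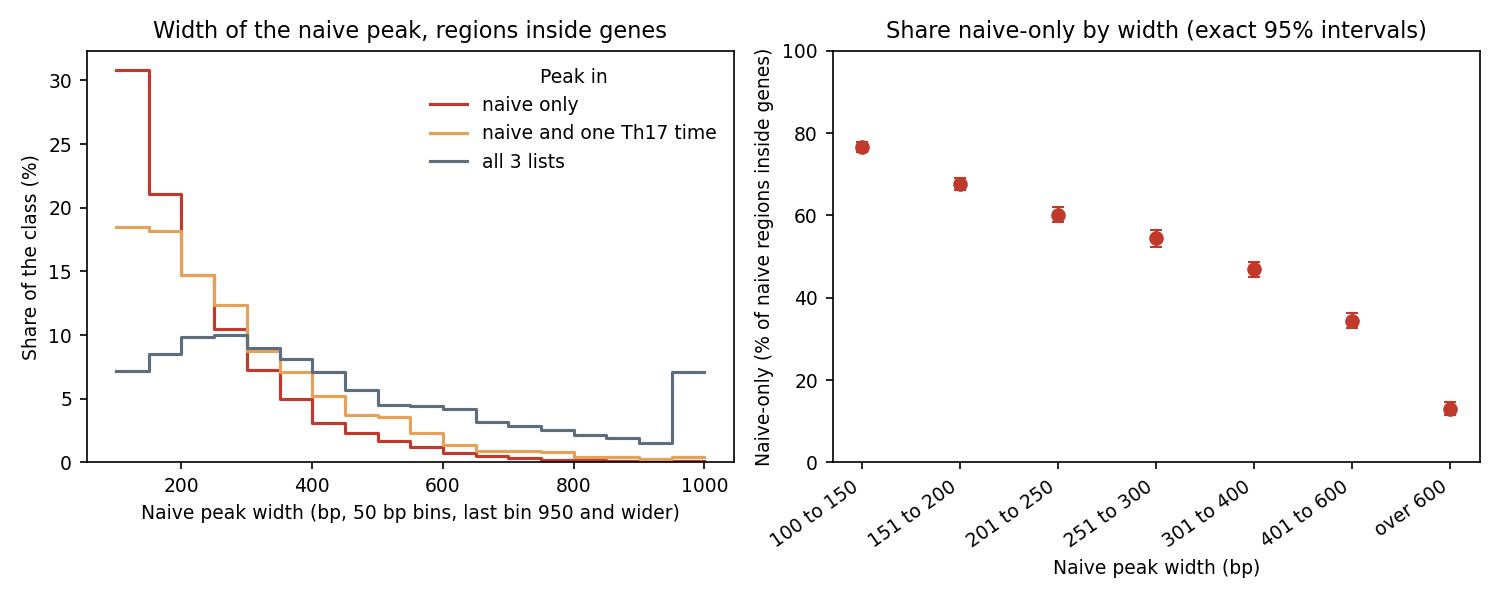
Width of the naive peak in bp for intragenic naive-only regions and intragenic regions of all 3 lists, and the percentage of intragenic naive regions that were naive-only in each width class, with 95% intervals. The naive-only regions have a median of 194 bp against 383 bp in all 3 lists, and their share runs down from 76.7% in the narrowest class to 13.0% in the widest.

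The 10 widest intragenic naive-only regions were 949 to 1301 bp wide. The widest lay at chr3:148850065-148851365 in Adgrl2, which encodes the adhesion receptor latrophilin-2, 5692 bp from the nearest 72 h peak and 34996 bp from the nearest 48 h peak. At chr5:71903285-71904519 a region of 1235 bp lay in Gabrb1, for a GABA-A receptor subunit. The next, of 1178 bp at chr12:41727722-41728899, lay in Immp2l, for a mitochondrial inner membrane peptidase subunit, 121185 bp from the nearest 72 h peak and 121222 bp from the nearest 48 h peak. The region in Deptor, an inhibitor of mTOR kinase, covered chr15:55120715-55121766 and 1052 bp. The other 6 were in Kbtbd11, Acoxl, Cfap54, Atp10a, Oxct1 and Gm11541. Of these 10 genes none is on the T cell lists used here.

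The median gap from an intragenic naive-only region to the nearest 48 h or 72 h peak was 4784 bp (quartiles 1291 and 12112), where the rule itself leaves out any overlap. Intragenic regions gained at both Th17 times lay farther from the nearest naive peak, at a median of 9233 bp. A Th17 peak lay within 200 bp of 5.11% of the regions, within 1 kb of 21.5%, within 5 kb of 51.2% and within 10 kb of 70.0%. Naive-only regions near gene ends were closer, with a median gap of 389 bp, and those between genes farther, at 5954 bp. The median gap to the nearest 48 h peak alone was 7762 bp and to the nearest 72 h peak 5350 bp, and the 72 h list is the longer, with 53926 peaks against 40624. At the edges of the rule, 87 regions lay 0 to 50 bp from a Th17 peak, with a median width of 192 bp, and 107 intragenic naive regions shared only 1 to 50 bp with one, with a median width of 144 bp. Likewise 142 regions lay within 100 bp beyond the 1 kb limit from a gene end (median width 168 bp), and 137 naive-only regions were left out because they lay within 100 bp short of it (160 bp).

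Within long genes the naive-only regions were spread almost evenly. In genes of at least 50 kb with a known strand, 22.5% of 6794 naive-only regions lay in the first 20% of the gene's length (21.5 to 23.5) and 18.4% in the last 20%. Regions of all 3 lists leaned to the 5′ side, with 29.6% of 3056 in the first 20% (28.0 to 31.2). Over genes of any length with a known strand, the share within 1 kb of a start of the same gene was 4.27% of 9467 naive-only regions (3.87 to 4.69) and 25% of 5002 regions of all 3 lists (23.8 to 26.2). In both respects the naive-only regions stood beside the regions gained at both Th17 times, with 23.6% in the first 20% and 3.74% within 1 kb of a start.

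**Figure D2:**
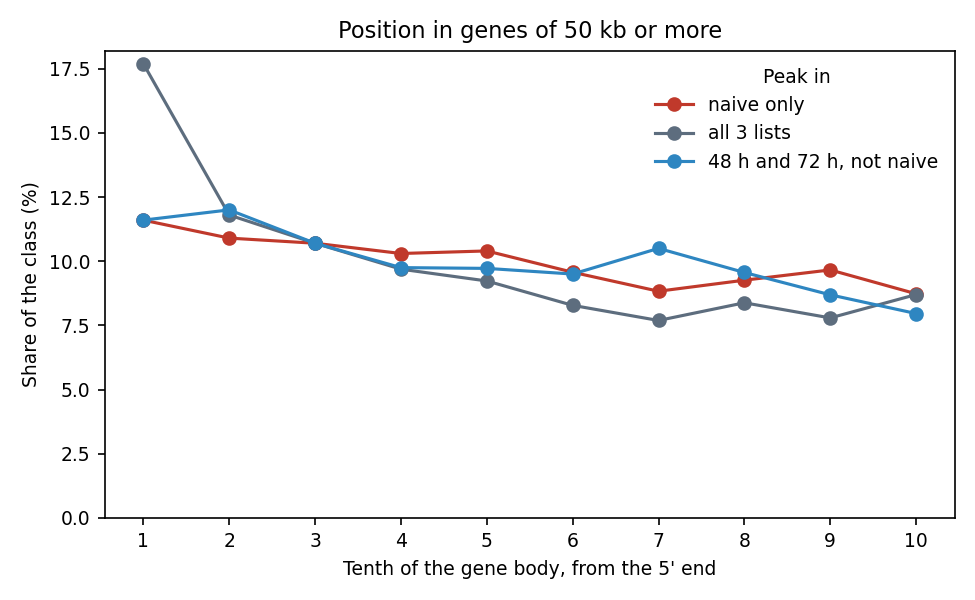
Percentage of intragenic regions in each 10% of the gene body's length, from the 5′ end on the left, for genes of at least 50 kb with a known strand. The first 20% holds 22.5% of naive-only regions, 29.6% of regions of all 3 lists and 23.6% of regions gained at both Th17 times.

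Of the 21900 protein-coding genes, 4909 held at least 1 intragenic naive-only region, or 22.4%. These were 67.8% of the 7244 genes with any naive region inside. A single such region was found in 2517 genes, 5 or more in 605 and 10 or more in 150, and those 150 held 17.7% of all the regions. Long genes dominate the top: the median length was 256 kb for genes with 10 or more, 52.3 kb for all genes with 1 or more, and 26.5 kb for genes with a naive region inside but no naive-only one. The naive-only share itself also moved with length, at 45.1% of naive regions in genes under 25 kb and 64.6% in genes of at least 400 kb (62.2 to 67.0), although median naive peak widths were 237 and 233 bp.

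Genes rich in naive-only regions were rarely emptied of peaks. Of the 150 genes with 10 or more, 148 (98.7%) also held a region gained at a Th17 time and 142 (94.7%) a region of all 3 lists. Among all 4909 genes, 60.7% also held a gained region, 46.3% a region of all 3 lists, and 22.8% held no Th17 peak inside the body. At the 5′-most start, taken where it lay within 1 kb of a gene end and had a naive peak, the start region was in all 3 lists in 98.5% of the genes with 10 or more (65 of 66; 91.8 to 100) and in 92.2% of genes with none (90.3 to 93.9). In the genes between, with 1 to 9 naive-only regions, it was 91.3% to 94.1%.

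Foxp1 held the most, with 46 naive-only regions among 74 intragenic naive regions in its 597405 bp at chr6:98925342-99522746. Its body held 32 regions at 48 h and 43 at 72 h, and of the regions with a Th17 peak 19 were in all 3 lists and 21 had no naive peak. The naive-only regions of Foxp1 were 100 to 619 bp wide with a median of 214 bp, against 119 to 872 bp and a median of 298 bp for the 19 in all 3 lists. They ran from 2.14 kb to 566 kb from the 5′ end of the gene. Their widest, at chr6:99388713-99389331, lay 3516 bp from the nearest 72 h peak. Given the widths of its 74 naive regions, the shares by width class over all genes correspond to 41.8 naive-only regions, against the 46 found. Read by length instead, its naive-only share of 62.2% lay below the 64.6% of genes of at least 400 kb. Th17 peak numbers skip around 9 of the 46.

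**Figure D3:**
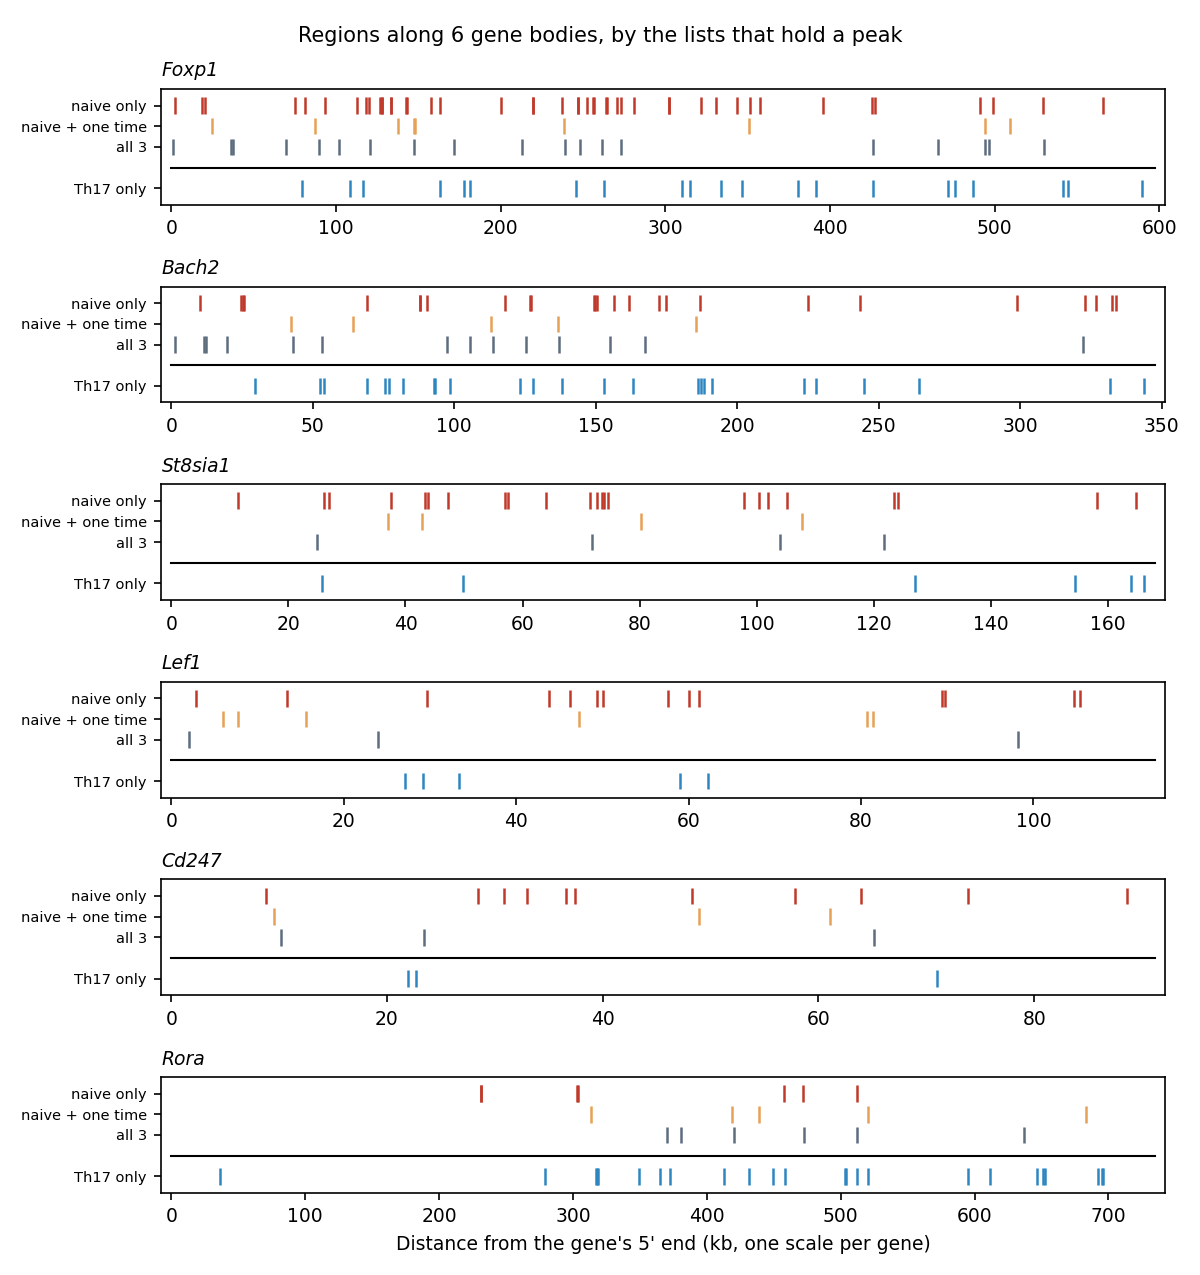
Position of each intragenic region along 6 genes, in kb from the 5′ end of the gene, with a row each for naive-only regions, naive regions also called at 1 Th17 time, regions of all 3 lists and regions gained at a Th17 time. Foxp1 holds 46 naive-only and 21 gained regions, whereas Rora holds 7 and 24.

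Of the other 19 genes at the top, some encode transcription factors and their partners. Bach2, a repressor of effector genes, held 26 naive-only among 45 naive regions and 25 gained ones. Th17 peak numbers skip around 12 of the 26. Maml2, a Notch coactivator, had 26 of 35, and Sox5, an HMG-box factor, 25 of 31. Med13l, a subunit of the Mediator kinase module, had 19 of 21 and none in all 3 lists. For Med13l all 19 lay between listed Th17 peaks whose running numbers skip, so a Th17 peak outside the lists analysed here could lie among them. Arid1b, a subunit of the BAF remodelling complex, had 19 of 35. Peak width corresponded to 25.9 naive-only regions in Bach2, 20.9 in Maml2, 16.8 in Sox5, 12.9 in Med13l and 18.8 in Arid1b.

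The others include enzymes, adhesion and signalling genes. St8sia1, the GD3 ganglioside synthase, had 23 naive-only among 31 naive regions within 167988 bp, and its body held 9 regions at 48 h and 13 at 72 h. Prkce, protein kinase C epsilon, had 23 of 31 with 8 regions at 48 h, 9 at 72 h and 3 gained. Sgms1, a sphingomyelin synthase, had 24 of 31. Pip4k2a, a phosphoinositide kinase, had 19 of 27. Itga9, integrin alpha 9, had 21 of 25, and its body held 25 regions in naive cells against 5 at 48 h and 4 at 72 h. Ripor2 had 21 of 28, and Rapgef2, an exchange factor for RAP, had 20 of 32. Pde4d, a cAMP phosphodiesterase, had 23 of 41, and Inpp4b, a phosphoinositide phosphatase, had 22 of 35 beside 28 gained regions. The same count was 26 of 39 in Wwox, 21 of 30 in Ext1, 21 of 22 in Fhit, 19 of 22 in Diaph3 and 19 of 25 in Lpp. In these 20 genes the number gained ran from 2 in Itga9 to 28 in Inpp4b. Th17 peak numbers skip around 13 of the 21 naive-only regions of Itga9 and 12 of the 21 of Ripor2, and around 0 in Sgms1 and Rapgef2. They also skip around 12 of 26 in Wwox, 9 of 21 in Ext1, 8 of 23 in St8sia1 and 8 of 19 in Pip4k2a. For Prkce, Inpp4b and Lpp the number was 6 each, for Pde4d 5, for Fhit 2 and for Diaph3 1.

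**Figure D4:**
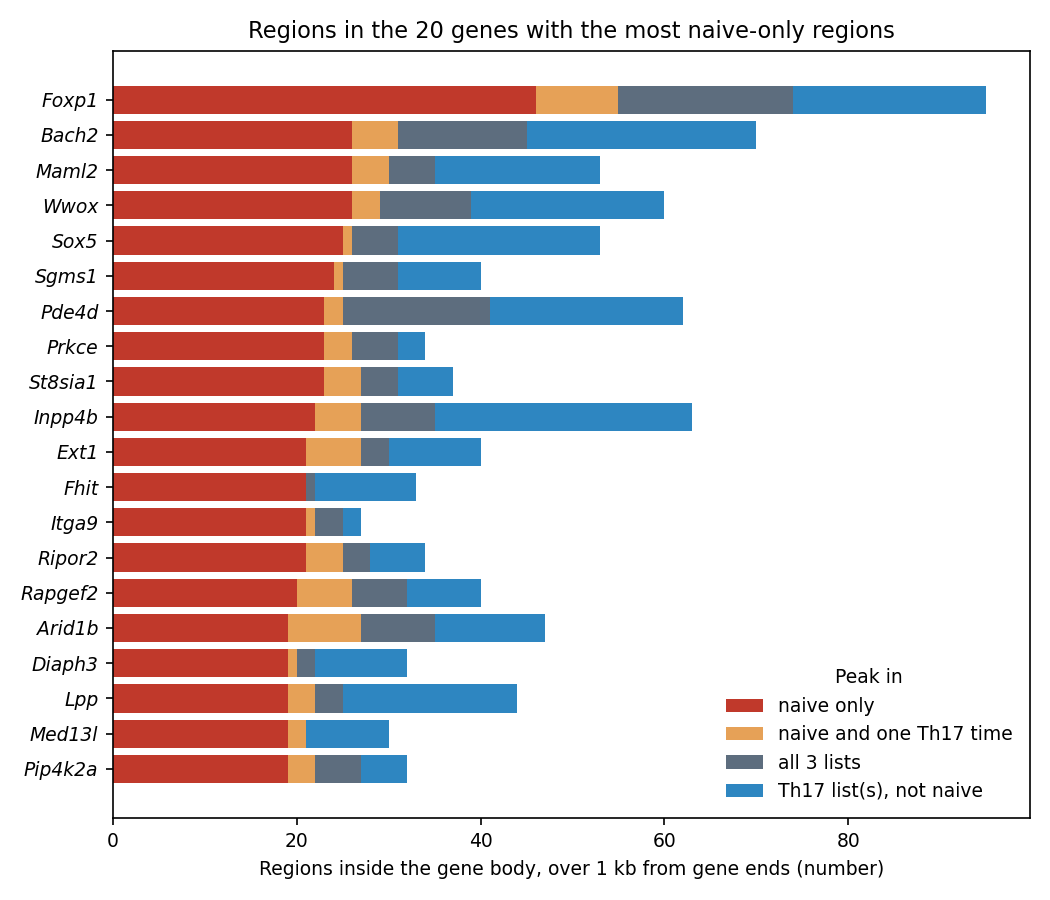
Number of intragenic regions in the 20 genes with the most naive-only regions, stacked from the left as naive-only, naive and 1 Th17 time, all 3 lists, and gained at a Th17 time. Foxp1 leads with 46 naive-only regions, and the lowest of the 20 genes have 19.

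Short genes came forward when counts were set against length. Among genes with 5 or more, Als2cl had 24.5 naive-only regions per 100 kb (5 of 5 naive regions). Fam78a had 19.3, Sema4f and Tspan13 17.9 each, Slc35b3 17.4, and Fam107b and Slc41a3 16.8 each. All 5 regions of Als2cl and all 5 of Tspan13 lay where Th17 peak numbers skip. A further set of genes held no Th17 peak inside the body over 1 kb from a gene end. Slc41a3, of a magnesium transporter family, had 7 such regions. P2rx7, the ATP-gated channel of T cells and macrophages, Pde7b, a cAMP phosphodiesterase, and Gm14569 had 6 each. Actn2, Fgfr1, Htr1f and Nnmt had 5 each. The 5′-most start of Actn2 lay in a region of all 3 lists, and all 5 naive-only regions of Nnmt lay where Th17 peak numbers skip.

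With regions of a gene read in order, 2554 unbroken runs of 2 or more naive-only regions held 6600 of them, or 55.3%, where naive-only regions are 32.5% of the 36695 intragenic regions. For regions gained at a Th17 time, which are 40.6% of the intragenic regions, the share in such runs was 60.3%. A region can join a run through either neighbour, so these shares can exceed the class shares in a random order. Clustering was not tested. Runs of 5 or more numbered 154. The longest had 11 regions, in Ldlrad3 over 80.0 kb, in Rsu1 over 73.2 kb and in Cox10 over 70.6 kb, genes that were named after their values were seen. The longest run in Foxp1 had 5 regions within 7.3 kb, and those of Cd247, Cblb and Fyn had 6 each, over 20.2, 22.0 and 18.1 kb.

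Genes of naive and quiescent T cells held 125 naive-only regions among 197 intragenic naive regions, or 63.5% (56.3 to 70.2), beside 54.8% over all genes. Of the 21 genes on this list, 17 had a naive region inside and 16 a naive-only one. The share expected from peak width was 58.2%. Gene length, with which the naive-only share also moved, was not allowed for in any of the list shares. Without Foxp1 the share was 64.2% (79 of 123; 55.1 to 72.7). Lef1, the partner of TCF-1, held 14 of 23, and Satb1, a chromatin organiser of T cells, held 11 of 16 with 4 regions at 48 h and 5 at 72 h. Peak width corresponded to 13.7 in Lef1 and 9.3 in Satb1. Foxo1 held 5 of 7. Tcf7, which encodes TCF-1, had 3 naive regions inside, all 3 naive-only, with 3 regions at 48 h and 3 at 72 h, all at other places. The median width over the naive-only regions of the list was 195 bp, beside 194 bp over all genes. With each list's peaks kept only from its median width upward, these genes stood at 55.4%, below the 57.0% over all genes.

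The highest share among lists with more than 100 naive regions was that of regulatory T cell and TGF-β genes, at 70.6% (77 of 109; 61.2 to 79.0), where width gave 55.5%. TGF-β was part of the culture. The receptor genes Tgfbr3 and Tgfbr2 held 16 of 20 and 12 of 15, Nrp1, a coreceptor, 11 of 14, and Smad3, a signal transducer, 8 of 12. Th17 peak numbers skip around 9 of the 11 in Nrp1, 3 of 16 in Tgfbr3, 4 of 12 in Tgfbr2 and 3 of 8 in Smad3. Tgfbr2 had 15 regions in naive cells, 5 at 48 h and 7 at 72 h. Foxp3, the lineage factor of regulatory T cells, had 2 naive regions inside its body, both naive-only, and no Th17 peak there. This list stayed above the share over all genes in every alternative processing tried, at 62.0% to 86.2%. So did the lists of T cell surface, T cell receptor signalling, adhesion and migration, myeloid and neural genes.

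T cell surface genes gave 71.2% (37 of 52; 56.9 to 82.9) and T cell receptor signalling genes 61.0% (128 of 210; 54.0 to 67.6). Cd247 held 11 of 17, and Cd2, an adhesion receptor, 4 of 4 with no region at 48 h and 1 at 72 h. Cd44, a marker of activated and memory cells, held 5 of 6 beside 6 gained regions. Of the signalling genes, Cblb, a ubiquitin ligase that restrains activation, held 17 of 26, the kinase gene Fyn 16 of 23, Prkcq, protein kinase C theta, 9 of 19, and Tec 9 of 11. Adhesion and migration genes gave 62.1% (105 of 169; 54.4 to 69.5), led by St8sia1, and lymphoid transcription factors 59.0% (108 of 183), with 13 of 17 in Ets1, 11 of 21 in Runx1 and 9 of 13 in Ikzf1. Peak width corresponded to 9.8 in Ets1, 11.3 in Runx1 and 7.0 in Ikzf1. Th17 peak numbers skip around 8 of the 13 in Ets1, 2 of 11 in Runx1 and 4 of 9 in Ikzf1.

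Th17 lineage genes stood lower, at 45.0% (18 of 40; 29.3 to 61.5), where width gave 53.5%, and they held 55 gained regions. Rora, for the nuclear receptor ROR alpha of Th17 cells, held 7 naive-only among 18 naive regions and 24 gained ones. Il23r, the IL-23 receptor gene, held 5 of 6 beside 5 gained. Il17a, a gene of 3592 bp, held none in any list over 1 kb from its ends. The wide interval of the list includes the share over all genes, and the list's share depended on the processing. With the wider peaks alone it stood at 66.7%, above the 57.0% over all genes, with Th17 peaks from the median score upward at 72.5%, below 75.6%, and without the regions where Th17 peak numbers skip at 24.0%, below 48.1%. In Rora 6 of the 7 naive-only regions lay where numbers skip. IL-6, STAT and JAK genes gave 51.5% (34 of 66), with 10 of 17 in Jak1. Il6st, which encodes the shared IL-6 receptor chain gp130, had 4 naive regions inside, all naive-only and within 25.4 kb, and no 48 h or 72 h region there, while its 5′-most start lay in a region of all 3 lists.

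**Figure D5:**
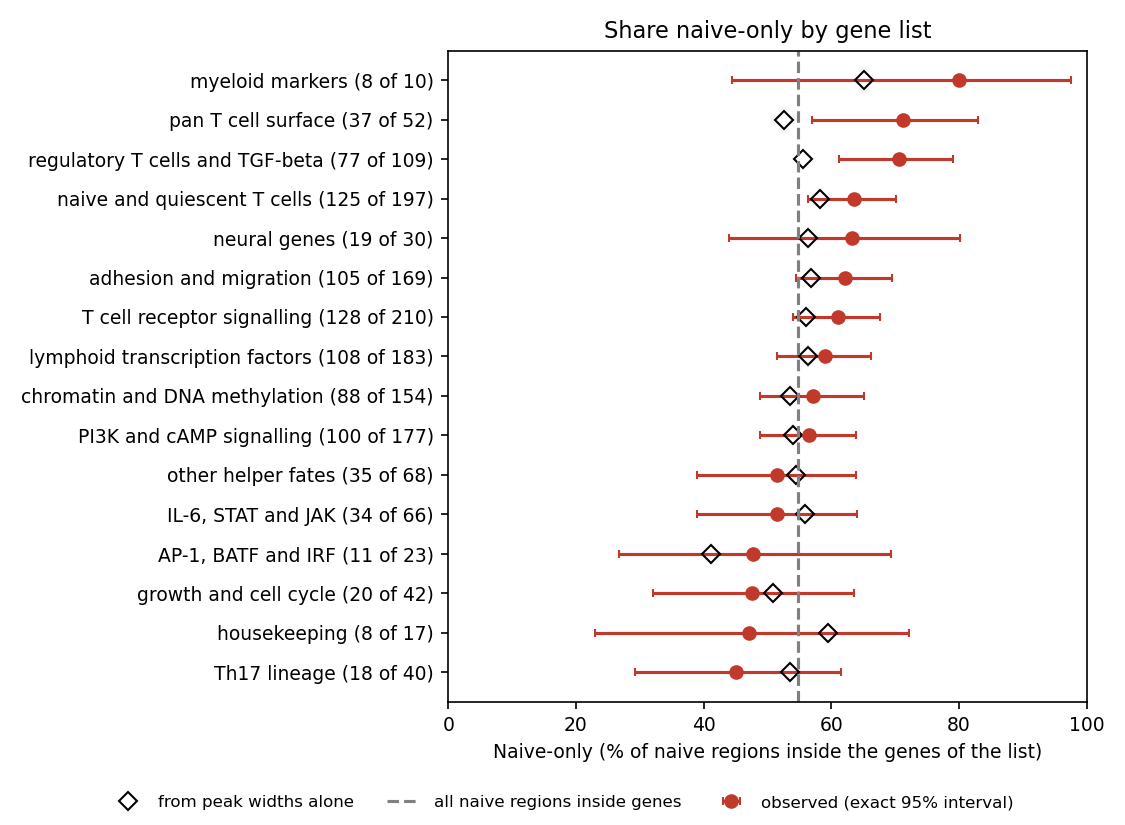
Percentage of intragenic naive regions that were naive-only, by gene list, with 95% intervals, beside the share expected from peak width and the share over all genes (54.8%). The lists of B cell and of CD8 and NK markers, with 4 and 3 such regions, are not drawn. Regulatory T cell and TGF-β genes lie at 70.6% and Th17 lineage genes at 45.0%.

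The remaining lists lay nearer to the share over all genes or rested on few regions, and 9 of the 18 lists lay on the other side of it when the wider peaks alone were used. PI3K and cAMP genes gave 56.5% (100 of 177), with 12 of 17 in Pik3r1, and chromatin genes 57.1% (88 of 154). Other helper fates gave 51.5% (35 of 68), with 15 of 26 in Tox. AP-1, BATF and IRF genes gave 47.8% (11 of 23), growth and cell cycle genes 47.6% (20 of 42) and housekeeping genes 47.1% (8 of 17). Myc had 3 naive regions over 1 kb inside the gene, all naive-only, and no listed Th17 region there, and all 3 lay where Th17 peak numbers skip. Neural genes, which serve as a list foreign to T cells, gave 63.3% (19 of 30; 43.9 to 80.1), beside 63.5% for the genes of naive T cells.

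The labelled cell type was read against marker genes, counting every region that overlapped a gene body or the 1 kb on either side of it. All 12 CD4 T cell marker genes found in the annotation held a region in each list, with 66 regions in naive cells, 38 at 48 h and 46 at 72 h. Of 7 B cell markers 4 held a region in naive cells, 3 at 48 h and 4 at 72 h, with 9, 11 and 20 regions in the same order, of which Ebf1 had 4, 7 and 15, and with Ms4a1 and Cd79b among those at 0 in every list. Of 8 myeloid markers 5 held a region in each list, with 14 regions in naive cells, 7 at 48 h and 9 at 72 h, and Csf1r, Lyz2 and Adgre1 at 0. Myeloid markers had 8 naive-only among 10 intragenic naive regions, 5 of them in Itgam, an integrin of myeloid and some lymphoid cells, and the part of other cells in the naive-only regions was not tested. CD8 and NK markers had 2 of 3 and B cell markers 3 of 4. Of 7 CD8 and NK markers 4 held a region in naive cells, 4 at 48 h and 4 at 72 h. They had 5, 5 and 6 regions in the same order, with Cd8b1 and Eomes present in every list. The B cell markers Pax5 and Cd79a had 1, 3 and 3 and 2, 1 and 1 regions, and the myeloid marker Spi1 had 4, 2 and 2. Of 4 erythroid markers 3 held a region in naive cells, 2 at 48 h and 2 at 72 h, with 5, 3 and 3 regions in the same order, and Gata1 held 2 naive-only regions and no Th17 region.

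At a few genes the 5′-most listed start lay in a region called in naive cells only. Among genes with 5 or more intragenic naive-only regions, 15 had a naive-only region at that start. In 8 of them, among them Prkcq, Mbnl1, Bcor and Itgam, the start lay within 1 kb of a gene end. In the other 7, among them Cd247, Rapgef2, Fyb and Trat1, it lay farther inside the annotated body. For these 7 no start was listed at the 5′ end of the body, so the state of that end was not read. Fyb, for a T cell adaptor, held 14 naive-only among 20 naive regions, and Trat1, for a T cell receptor associated adaptor, 11 of 14. Over the chromosomes the naive-only share of intragenic naive regions ran from 48.0% on chromosome 7 to 62.2% on chromosome 12.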

How the data were processed

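ATAC-seq peak lists of naive CD4+ T cells and of Th17 cultures at 48 h and 72 h were analysed, 1 list per condition. Coordinates are on GRCm38, also named mm10, per the submitters' processing notes, which list the tools MACS2 2.2.6, SAMtools 1.9, deepTools and Bowtie2 2.3.4.1. Thresholds, filters, read shifting and pooling of libraries were not given in the sources used here. Deposited by the authors, Th17 peaks carry a whole-number score of at least 30 on an unstated scale, used only to filter within a list, and the naive list has none. One empty line of the naive list was dropped. Depth is unknown, so no count test was possible, and each share has an exact Clopper-Pearson 95% interval that covers counting error only.

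Peaks were merged at 1 bp of overlap with Python 3.11.15, numpy 2.4.6, pandas 2.3.3 and scipy 1.17.1, and the merging was checked on simulated data. Gene bodies came from the RefSeq GRCm38.p6 table of 21900 protein-coding genes, and strand and start windows from the RefSeq promoter table, which covered 17492 of them. The members and the 18 gene lists were chosen with earlier results of these data known. Named genes were the 20 with the most naive-only regions, the 8 with the most per 100 kb among those with 5 or more, the 8 with the most and no Th17 peak inside, and up to 4 leading genes of each list. Some of these are not reported here. Others were named where a count called for it or are said to be chosen afterwards. Named single regions were the 10 widest and the widest in leading T cell genes. The share expected from width gives each naive region the naive-only share of its width class over all genes. Alternatives changed the overlap, the width, number or score of peaks used, and the distance from gene ends. The planned motif search over all regions needed a genome and was replaced by RefSeq start windows, chosen after the data were seen.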

Additional observations from a re-analysis of the deposited data

How the results depend on the processing

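The 6 values below and the shares of the 18 gene lists were recomputed under 5 other settings and 1 chosen after seeing the data. Starts, position, runs, gene counts and single genes were not. The main values were 11938 intragenic naive-only regions, 54.8% of intragenic naive regions, 50.9% of naive-only regions inside genes, a median width of 194 bp, a median gap of 4784 bp to a Th17 peak, and 63.5% for genes of naive and quiescent T cells. With an overlap of at least 50% of the shorter peak, the share of naive regions was 55.6% and the gap 4583 bp. Keeping each list's peaks from its median width upward gave 5296 regions, 57.0%, 50.2% inside genes, 367 bp, 10553 bp and 55.4% for the naive T cell genes, which were then below the share over all genes. With the same number of peaks in each list, the values were 51.8%, 262 bp and 5982 bp. With Th17 peaks at or above the median score, they were 75.6%, 49.2% inside genes, 208 bp, 9613 bp and 82.4% for the naive T cell genes. Over 5 kb from gene ends, they were 57.4%, 41.1% inside genes, 199 bp and 5823 bp. Peak names carry running numbers, and 4377 naive, 4546 48 h and 4264 72 h numbers are absent within the runs. Without the 33.4% of regions that lie between listed Th17 peaks whose numbers skip, the values were 7955 regions, 48.1%, 191 bp and 4452 bp. Of the 18 gene lists, 9 lay on the same side of the share over all genes when the wider peaks alone were used, and 14 or more did under each of the others. Of the 6 values, those not given moved by less than their interval or, for counts, by less than 1.5 times. Beyond the naive T cell genes, 21 of 101 list shares moved by more than their interval. The score filter thins the Th17 lists alone, since the naive list has no score, so a higher naive-only share is built into it. The cause of the other shifts was not tested. No paired analysis was possible because each condition has 1 peak list and no value per library, and leaving out a library was not possible either. The motif alternatives were not run. Unknown depth and narrow peaks limit every absence of a peak.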

Other observations

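RefSeq miRNA hairpins were also laid over the intragenic naive-only regions, and 5 hairpins were overlapped. These were Mir7007 in Cpa3, Mir330 in Eml2, Mir6416 in Trpm1, Mir1894 in Ppp1r10 and Mir7093 in Armcx3. Cpa3 encodes carboxypeptidase A3, a protease of mast cells. Its body held 3 naive regions, all naive-only, at chr3:20222163-20222603, chr3:20222728-20223273 and chr3:20223358-20223670, and no 48 h or 72 h region.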
